A study of Mus musculus with 10 samples.

Results

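The genes described here encode the proteins of the mitochondrial ribosome. They were chosen by symbol: every gene of the deposited table whose symbol is Mrpl (large subunit) or Mrps (small subunit), then a number and at most 1 letter. This gave 78 of 17274 genes, 49 named for the large subunit and 29 for the small subunit. All 78 had a mean of at least 0.5 FPKM over the livers and so were among the 12053 genes tested. FPKM is the number of fragments per kilobase of gene, scaled to the depth of the library.

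Gene expression was measured by RNA-seq of polyadenylated RNA in 10 livers of WT mice. All the mice ate CDAHFD, a choline-deficient, high-fat diet in which defined L-amino acids replace protein and which causes nonalcoholic steatohepatitis (fatty liver with inflammation and scarring). Of the livers, 5 were from mice given a control AAV into a vein and 5 from mice given an AAV encoding miR-181d-5p. AAV is adeno-associated virus, a gene delivery vector. The sources used here do not give the vector's promoter, its dose, the times, or the age and strain of the mice, and there is no group without the diet or without a vector. The labels number the livers 1 to 5 in each group but do not say that each came from its own animal, so p-values measure only the spread between these 10 samples, part of which may be technical.

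Mitochondria keep their own ribosome, which resembles that of bacteria and makes only the few inner-membrane proteins encoded by mitochondrial DNA, all of them subunits of the oxidative phosphorylation complexes. The small subunit reads the messenger RNA and the large subunit joins amino acids and is held at the inner membrane, where its products are inserted. All of its proteins are encoded in the nucleus and imported, many have no counterpart in bacteria, and in the liver, an organ rich in mitochondria, their loss impairs respiration. Symbols do not always give position: the proteins of Mrps18a and Mrps30 sit in the large subunit, and that of Mrps36 belongs to the 2-oxoglutarate dehydrogenase complex.

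Libraries held 18985912 to 20657019 assigned reads, and a member's value rested on 126 to 3390 reads (median 649). Control livers 1 and 2 stood apart: their FPKM summed to 440782 and 444090, against 470846 to 502752 in the other 8, and in both the shorter genes of the table were low and the longer genes high. Control 5 lay at the other end, with the highest sum (502752), shorter genes high and longer genes low. It stays among the controls where controls 1 and 2 are left out. Hepatocyte markers were abundant in all 10 livers (summed FPKM of 10 markers 32510 to 38720 in controls and 33200 to 37490 in the other group). The main counts of members are given with and without controls 1 and 2; leaving both out was chosen after the values were seen.

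Most mitochondrial ribosomal protein genes had slightly higher means in the livers given miR-181d-5p, and none passed the test after adjustment. The log2 change, on the log2(FPKM + 1) scale and taken as miR-181d-5p minus control, was above 0 for 75 of 78 members, where 45.5% of all genes tested were above 0. The median change of the members was 0.12 (interquartile range 0.08 to 0.16), against -0.02 over all genes. In limma with Benjamini-Hochberg adjustment over all 12053 genes, 0.0% of genes and no member passed 0.05, and the lowest adjusted p of a member was 0.222; limma voom on the reads recovered from the FPKM also called 0 genes. At an unadjusted p under 0.05, 15 members were higher (5.04% of all genes were) and 0 were lower (9.63% of all genes were). That count of 15 moved with single livers: it was 7 without control 2, 29 without control 5, and 8 or 9 without any of miR-181d-5p livers 1 to 4. The groups did not overlap for 4 members, all higher with miR-181d-5p (1.02% of all genes, with 1.45% apart in the lower direction): Mrps34, Mrpl2, Mrps26 and Mrpl16.

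Without controls 1 and 2 this difference was much smaller. Then 48 of 78 members lay above 0, beside 50.2% of all genes, and the members' median was 0.02. At an unadjusted p under 0.05, 6 members were higher (6.26% of all genes) and 1 was lower (10% of all genes). Then 7 genes of all tested (0.0581%) passed the adjusted test, none of them a member, and the lowest adjusted p of a member was 0.205. Non-overlapping groups, higher with miR-181d-5p, were then seen for 6 members, but also for 4.39% of all genes, since 3 controls are easier to clear than 5.

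**Figure D1:**
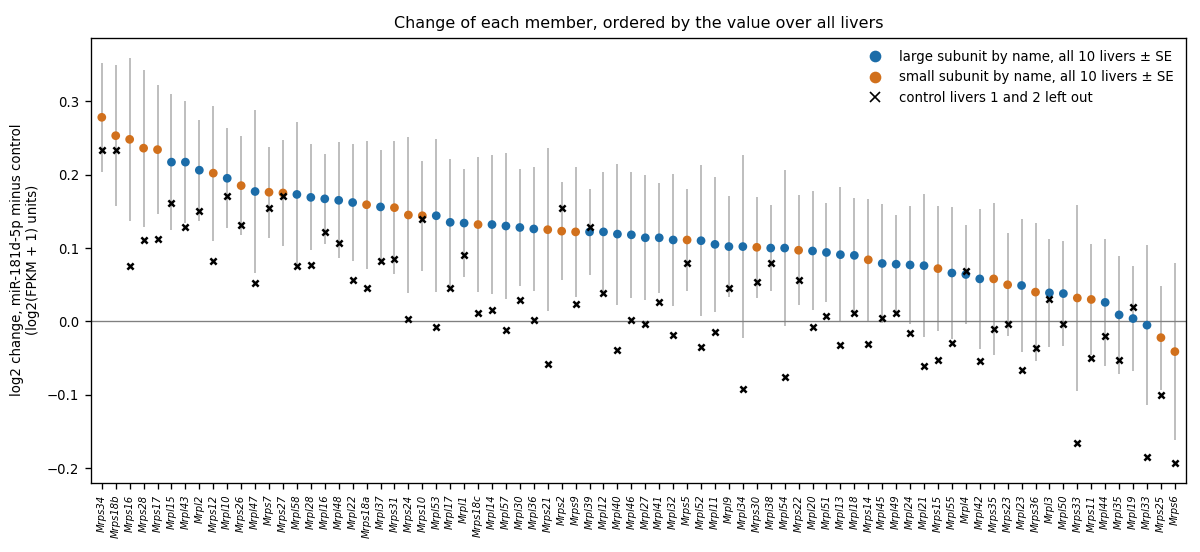
Log2 change (log2(FPKM + 1) units, miR-181d-5p minus control) of each of the 78 members, ordered by size, with large-subunit symbols in blue, small-subunit symbols in orange and bars of ± 1 standard error from limma over all 10 livers; crosses show the change with control livers 1 and 2 left out. Dots lie above 0 for 75 members and crosses for 48, and the cross lies close to the dot for Mrps34 and Mrps18b.

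Sequences are shown for the vector's microRNA, for the strongest match to it among the members, and for 3 members' promoters. A microRNA finds its targets mainly through its seed, bases 2 to 8, in capitals here. The mature sequence (RefSeq, GRCm38.p6, chr8:84178759-84178781, minus strand) shares its seed with miR-181a-5p, miR-181b-5p and miR-181c-5p of the same table.
miR-181d-5p: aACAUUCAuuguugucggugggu

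In the longest 3′ UTR of each member's protein-coding transcripts (GENCODE vM21, GRCm38), a match to the seed was found for 10 of 78 members (12.8%), against 2702 of 11770 genes tested that have a 3′ UTR (23.0%). A match was TGAATGTA (8mer), TGAATGT (7mer-m8) or GAATGTA (7mer-A1) on the transcript's strand. The members' 3′ UTRs were also shorter, with a median of 388 nt against 1114 nt, and the shares were not adjusted for this. The only 8mer lay in Mrpl16, at chr19:11774785-11774792 (plus strand), in the last of its 4 exons and at base 152 of a 3′ UTR of 327 nt. It is shown with 10 bases on each side and the match in capitals.
Mrpl16 site: aattaaagttTGAATGTAacctcagggt

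Mrpl16 was higher, not lower, in the livers given miR-181d-5p (values below). The member with the most matches was Mrps30, with 3 of the 7mer-m8 kind in 1972 nt of 3′ UTR. Mrps30 stood at 20.4, 19.6, 21.1, 23.2 and 21.0 FPKM in control livers 1 to 5 and at 23.0, 21.0, 24.3, 24.0 and 21.0 FPKM in miR-181d-5p livers 1 to 5. The groups overlapped over most of their range, and its log2 change was 0.10 ± 0.07 (SE, n = 5 per group, limma adjusted p = 0.498). The other members with a match were Mrpl15, Mrpl17, Mrpl19, Mrpl58, Mrps5, Mrps16, Mrps25 and Mrps33. Of these 8 only Mrps25 was below 0, at -0.02. For Mrps30 the gene length behind the FPKM was 1590 nt, shorter than the 3′ UTR searched. The same held for Mrps5 (1434 against 2976 nt), Mrps16 (654 against 2023 nt) and Mrpl58 (782 against 1952 nt). The FPKM of these members may therefore not report on transcripts that carry the matches.

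Promoters of this gene family are known for sites of Nrf1, of GABP (an ETS factor) and of YY1, factors that control many nuclear genes of mitochondria. Promoters were taken from RefSeq (GRCm38.p6) as the 250 bases before and 50 bases after the start of transcription, and 69 of 78 members had one. The Nrf1 motif (GCGCA, any base, then GCGC) was found on either strand in 13 of 69 (18.8%), against 11.2% of the 9659 genes tested with a promoter and 5.2% of all 27025 genes of the promoter table. A gene with several starts counted once if any window held the motif, and such genes were 3 of the 69 members but 1951 of the 9659 genes tested. The ETS motif CCGGAAGT was in 12 (17.4%, against 9.0% and 4.3%) and the YY1 motif AAGATGGCG in 8 (11.6%, against 3.5% and 1.6%). At least 1 of them was in 31 members (44.9%, against 21.9% and 10.3%), in 22 of 43 large-subunit and 9 of 26 small-subunit promoters. The median share of G and C was 58.0% in the members' promoters and 60.5% in those of genes tested.

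The promoters shown are those of the 3 members with the lowest p that hold an Nrf1 or ETS motif. Mrps34, the member with the lowest p of all 78, was not among the 69 with a promoter and was not searched. Capitals mark the motifs, and transcription starts right after base 250. That of Mrps26 (chr2:130563507-130563806, plus strand) holds a reversed ETS motif at base 236 and a pair of overlapping Nrf1 motifs at bases 249 and 255. That of Mrpl43 (chr19:45006393-45006692, minus strand) holds an ETS motif at base 239. That of Mrps27 (chr13:99344536-99344835, plus strand) holds a reversed ETS motif at base 202 and a YY1 motif at base 265.
Mrps26 promoter: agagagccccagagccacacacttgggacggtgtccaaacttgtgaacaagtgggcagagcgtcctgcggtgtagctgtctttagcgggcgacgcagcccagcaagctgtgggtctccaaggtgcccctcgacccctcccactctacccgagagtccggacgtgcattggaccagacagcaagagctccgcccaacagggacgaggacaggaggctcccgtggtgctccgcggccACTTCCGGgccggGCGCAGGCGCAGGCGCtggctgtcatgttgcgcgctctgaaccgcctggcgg
Mrpl43 promoter: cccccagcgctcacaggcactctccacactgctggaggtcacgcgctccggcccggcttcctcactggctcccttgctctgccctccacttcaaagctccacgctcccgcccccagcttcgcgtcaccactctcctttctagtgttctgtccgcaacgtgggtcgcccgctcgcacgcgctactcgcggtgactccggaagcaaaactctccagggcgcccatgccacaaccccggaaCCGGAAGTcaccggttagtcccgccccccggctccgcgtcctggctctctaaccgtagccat
Mrps27 promoter: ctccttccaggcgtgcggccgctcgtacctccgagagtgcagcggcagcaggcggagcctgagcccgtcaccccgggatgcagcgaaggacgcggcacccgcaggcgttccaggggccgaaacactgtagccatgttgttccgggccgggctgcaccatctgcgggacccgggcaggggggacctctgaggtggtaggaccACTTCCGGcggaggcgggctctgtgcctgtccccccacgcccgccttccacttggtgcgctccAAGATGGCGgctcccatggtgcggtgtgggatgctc

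Levels differed far more between members than between groups. Mean control levels ran from 2.45 to 141 FPKM, a 57.6-fold range, with 30 members at or above 30 FPKM and 13 under 10 FPKM. The median member stood at 23.7 FPKM in the large subunit and 21.0 FPKM in the small subunit, a nearness that depends on the gene lengths used. The highest were Mrpl12, a protein of the stalk that recruits translation factors (141 ± 15.6 FPKM, SD, n = 5), and Mrpl52 and Mrpl54, large-subunit proteins without a bacterial counterpart (121 ± 20.2 and 76.3 ± 12.8 FPKM). In the small subunit Mrps21, Mrps34 and Mrps24 led, at 59.0 ± 10.7, 54.7 ± 2.98 and 52.7 ± 9.17 FPKM, and these 3 did not differ beyond their spread. The lowest by the deposited values were Mrps25 (2.45 ± 0.256 FPKM), Mrpl3 (3.46 ± 0.087), Mrpl19 (3.55 ± 0.195) and Mrpl4 (3.70 ± 0.151), and then, in the small subunit, Mrps35 (8.72 ± 1.25) and Mrps9 (9.0 ± 1.08).

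**Figure D2:**
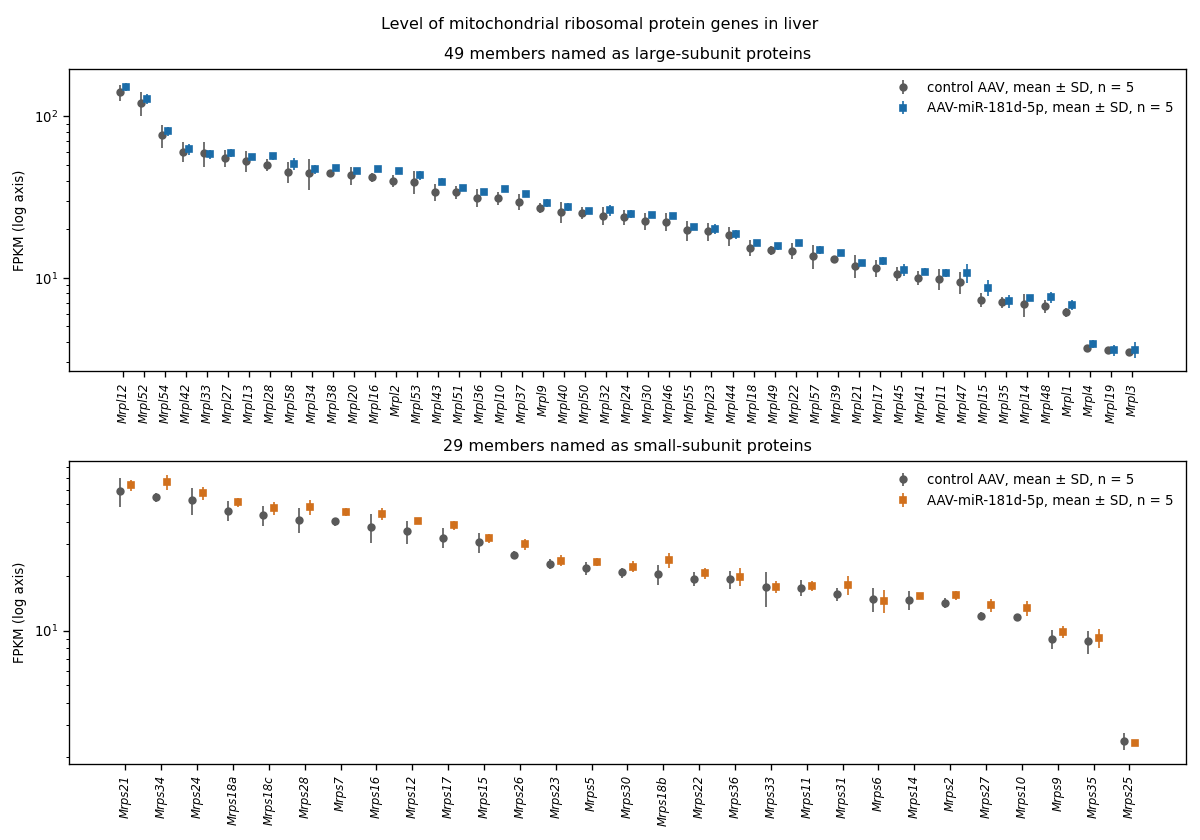
Mean FPKM (log axis) ± SD of the 49 large-subunit and 29 small-subunit members, ordered by control level, with 5 control livers in grey and 5 miR-181d-5p livers in blue or orange. The members span 2.45 to 141 FPKM in controls, and the means of the 2 groups of livers lie close together beside that span.

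The order of levels rests in part on the gene length by which the deposited values were divided. For 7 members that length was more than 2 times the longest coding transcript of the annotation. Mrpl14, homolog of a bacterial protein at the interface of the subunits, was the extreme: 7525 nt was used where the longest coding transcript has 645 nt. Its 6.85 FPKM ranked 72nd of 78, and the same reads per kilobase of that transcript would give 79.9, which ranks 3rd. For Mrpl4 the lengths were 8356 and 1288 nt, and its level would be 24.0, rank 39. For other members the length used was far shorter than that transcript, as for Mrpl47 (872 against 3364 nt), Mrps17 (1099 against 5061 nt) and Mrps26 (962 against 4278 nt). With the longest coding transcripts the members ranged over 44.4-fold, from 2.43 (Mrpl47) to 108 (Mrpl52), and the medians were 29.3 in the large subunit and 17.1 in the small subunit. These values depend on the transcript chosen too and are not corrected levels. The length is common to all livers, so it does not alter the ratio of a member's FPKM between livers.

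The livers differed among themselves in a way that most members shared. The median deviation of the 78 members from their 10-liver means (log2 units) was -0.144 in control 1 and -0.243 in control 2. Controls 3, 4 and 5 had 0.008, -0.021 and 0.097. Livers 1 to 5 of the miR-181d-5p group had 0.059, 0.074, 0.108, 0.091 and -0.021. Control 5 was as high as the miR-181d-5p livers, miR-181d-5p liver 5 was level with control 4, and only controls 1 and 2 were well below the rest. Control 1 or 2 was the lowest of the 10 livers for 66 of 78 members (43 large, 23 small), against 24.7% of all genes tested. Both were the 2 lowest for 44 members (9.84% of all genes).

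The exceptions were 12 members lowest in another liver. These were Mrpl10 and Mrpl50 (control 5), Mrpl39 and Mrps27 (control 3), Mrps2 and Mrps22 (control 4), Mrps6 (miR-181d-5p liver 1), Mrpl19 (liver 4), and Mrpl3, Mrpl35, Mrps10 and Mrps35 (liver 5). At the other end, 46 members were highest in a miR-181d-5p liver and 26 in control 5 (19 large, 7 small). The members also spread more among controls: the within-group SD of log2(FPKM + 1) was larger in controls for 62 of 78, as for 76.1% of all genes, with medians of 0.165 and 0.0847.

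**Figure D3:**
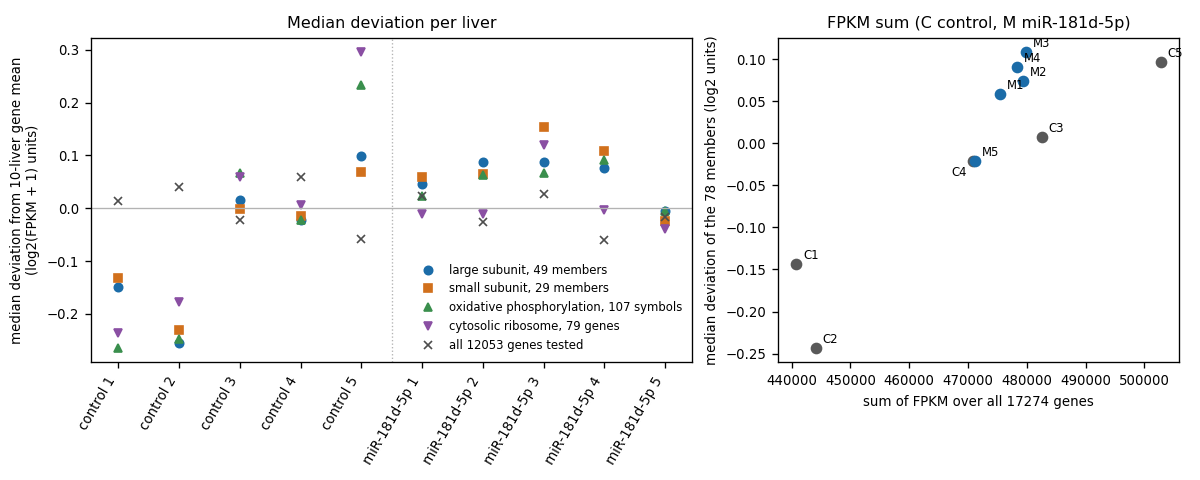
Left, the median deviation from the 10-liver gene mean (log2(FPKM + 1) units) in each liver for both subunits and, for comparison, oxidative phosphorylation genes, cytosolic ribosomal proteins and all genes tested. Right, the members' median deviation against the summed FPKM of the liver, where controls 1 and 2 have the lowest sums (440782 and 444090) and the lowest members (-0.144 and -0.243).

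The stalk and the surroundings of the catalytic centre, lists of 3 and 4 members, held 3 of the 5 large-subunit members with the lowest p. Whether position in the ribosome matters was not tested. Mrpl2 (chr17:46646229-46650139, plus strand) lies at the catalytic centre and at a bridge between the subunits. Its level was 40.9, 34.4, 43.7, 39.1 and 41.6 FPKM in control livers 1 to 5 and 46.2, 45.0, 45.6, 47.8 and 45.8 FPKM in miR-181d-5p livers 1 to 5. Every miR-181d-5p liver was above every control, with control 2 far below the rest. Its log2 change was 0.21 ± 0.07 (SE), or 115.4% of the control mean (limma adjusted p = 0.250). The exact permutation p, two-sided and unadjusted, was 0.007937, the smallest that 252 labellings of 5 against 5 can give. Any gene whose groups do not overlap has this value, so it adds nothing to that separation.

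Mrpl16 (chr19:11770391-11774960, plus strand), which sits near the catalytic centre, stood at 42.3, 37.8, 43.4, 41.7 and 44.9 FPKM in the controls. With miR-181d-5p it stood at 45.7, 48.96, 47.0, 47.9 and 46.7 FPKM. The groups were apart by less than 1 FPKM, the distance from control 5 to liver 1. The log2 change was 0.17 ± 0.06 (limma adjusted p = 0.269). The other members beside the catalytic centre or the tunnel wall, Mrpl3 and Mrpl4, had changes of 0.04 and 0.06 (limma adjusted p = 0.826 and 0.662). At their control means of 3.46 and 3.70 FPKM, log2(FPKM + 1) shrinks changes. Their means with miR-181d-5p were 103.9% and 105.8% of the control means, against 112.4% for Mrpl16.

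Mrpl10 (chr11:97041560-97049213, plus strand) anchors the stalk. It was at 30.3, 30.1, 33.0, 34.5 and 27.6 FPKM in controls and at 36.6, 34.5, 36.2, 36.8 and 34.2 FPKM with miR-181d-5p. Only liver 5 of the second group fell below the highest control, and the lowest value was in control 5, not in controls 1 and 2. Its log2 change of 0.20 ± 0.07 (limma adjusted p = 0.259) was 0.17 without controls 1 and 2. The other stalk members were closer to their controls: Mrpl11, at the stalk's base, had 0.11 ± 0.09 (limma adjusted p = 0.595). Mrpl12 was at 127, 131, 151, 134 and 164 FPKM in controls and at 147, 167, 144, 155 and 152 FPKM with miR-181d-5p, so control 5 was above all but liver 2 (log2 change 0.12 ± 0.08, limma adjusted p = 0.481).

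Mrpl43 and Mrpl28 completed the 5. Mrpl43 (chr19:45004829-45006442, minus strand), a protein without a bacterial counterpart, had 32.8, 28.7, 32.0, 39.0 and 37.4 FPKM in controls and 41.1, 38.8, 39.6, 41.2 and 36.5 FPKM with miR-181d-5p. Controls 4 and 5 lay inside the range of the second group. Its log2 change of 0.22 ± 0.08 (limma adjusted p = 0.288) became 0.13 without controls 1 and 2. For Mrpl28 (chr17:26123500-26126613, plus strand), homolog of a bacterial protein, controls had 44.8, 46.1, 54.6, 52.2 and 53.6 FPKM and the others 53.0, 57.6, 54.7, 60.4 and 56.8 FPKM. Apart from controls 1 and 2 its groups were close, and the change of 0.17 ± 0.07 (limma adjusted p = 0.317) became 0.08 without them.

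Neither the central protuberance nor the surroundings of the tunnel exit held a member with an unadjusted p under 0.05 in limma. Of all genes 5.04% were higher and 9.63% lower at that level, so 0 of 6 in each list does not set these places apart. All 6 members of the central protuberance, a ridge built of proteins and a structural RNA, had changes above 0, from 0.09 (Mrpl18) to 0.17 (Mrpl48), with adjusted p of 0.353 or more in limma. Mrpl27, Mrpl38, Mrpl40 and Mrpl46 lay between, and the median of the 6 fell from 0.12 to 0.01 without controls 1 and 2. Around the tunnel exit and the membrane, Mrpl44 and Mrpl45, the latter an anchor of the ribosome at the inner membrane, had 0.03 and 0.08. Mrpl22, Mrpl23, Mrpl24 and Mrpl47 had 0.16, 0.05, 0.08 and 0.18, the lowest limma adjusted p of the 6 being 0.365. Large-subunit proteins with a counterpart in the bacterial large subunit (30 members) and those without (21 members, Mrps18a and Mrps30 included) had medians of 0.11 and 0.11.

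In the small subunit Mrps34 had the lowest p of all 78 members. Mrps34 (chr17:24895116-24897502, plus strand) is a protein without a bacterial counterpart whose loss disturbs the small subunit. Its level was 54.6, 49.7, 57.6, 55.9 and 55.6 FPKM in control livers 1 to 5 and 68.4, 62.8, 67.1, 75.9 and 59.2 FPKM in miR-181d-5p livers 1 to 5. The groups did not overlap, and liver 4 was the highest by a wide margin. The mean with miR-181d-5p was 121.9% of the control mean, a log2 change of 0.28 ± 0.07 (limma p = 0.00252, adjusted p = 0.222; exact permutation p = 0.007937). Without controls 1 and 2 the change was 0.23. Of its annotated exon bases, 77.8% are shared with other genes, Nme3 on the same strand and Mapk8ip3 on the opposite strand, so part of these reads may belong to them.

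Mrps26 (chr2:130563742-130568695, plus strand), also without a bacterial counterpart, was the other small-subunit member whose groups were apart. Controls had 24.2, 25.3, 27.0, 27.4 and 27.4 FPKM and the others 29.3, 30.4, 33.3, 29.5 and 27.6 FPKM, so that liver 5 was just above the highest control. Its log2 change was 0.19 ± 0.07 (limma adjusted p = 0.268, exact permutation p = 0.007937).

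Of the 5 members of the small subunit's head or decoding site, Mrps7 was the one with the lowest p. Mrps7 (chr11:115603925-115608036, plus strand), in the head that holds the tRNAs, had 41.7, 36.8, 40.8, 39.9 and 41.6 FPKM in controls and 47.5, 47.1, 45.1, 46.1 and 41.7 FPKM with miR-181d-5p. Livers 1 to 4 were above every control and liver 5 was level with control 1. The log2 change was 0.18 ± 0.06 (limma adjusted p = 0.259), and 0.15 without controls 1 and 2. Mrps12, which helps to check the match of tRNA and codon, had 0.20, Mrps10 0.14, Mrps9 0.12 and Mrps14 0.08 (limma adjusted p from 0.338 to 0.645).

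Mrps17 (chr5:129715497-129722556, plus strand), homolog of a bacterial protein that binds the small ribosomal RNA, had 30.7, 26.5, 34.8, 34.6 and 36.8 FPKM in controls. With miR-181d-5p it had 41.2, 36.5, 38.8, 39.8 and 35.7 FPKM. Control 5 was above livers 2 and 5, and the log2 change of 0.23 ± 0.09 (limma adjusted p = 0.276) became 0.11 without controls 1 and 2.

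Mammals carry 3 relatives of a single bacterial small-subunit protein: Mrps18a, Mrps18b and Mrps18c, which take up different places in the ribosome. Mrps18b (chr17:35910379-35916389, minus strand) was at 23.4, 17.0, 18.6, 22.6 and 20.9 FPKM in controls and at 24.9, 23.6, 27.1, 26.1 and 21.1 FPKM with miR-181d-5p. Liver 5 lay among the controls and the other 4 above them. Its log2 change was 0.25 ± 0.10 (limma adjusted p = 0.283), and 0.23 without controls 1 and 2. Mrps18a and Mrps18c stood at 46.1 ± 5.81 and 43.6 ± 5.48 FPKM in controls and Mrps18b at 20.5 ± 2.70 FPKM, but per kilobase of the longest coding transcript the values are 45.1, 26.7 and 30.2, so the order of Mrps18b and Mrps18c depends on the length used. Mrps18a and Mrps18c had changes of 0.16 ± 0.09 and 0.13 ± 0.09 (limma adjusted p = 0.404 and 0.503). These became 0.05 and 0.01 without controls 1 and 2. Mrps36, which is no ribosomal protein by position, had 0.04 ± 0.09 (limma adjusted p = 0.860).

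**Figure D4:**
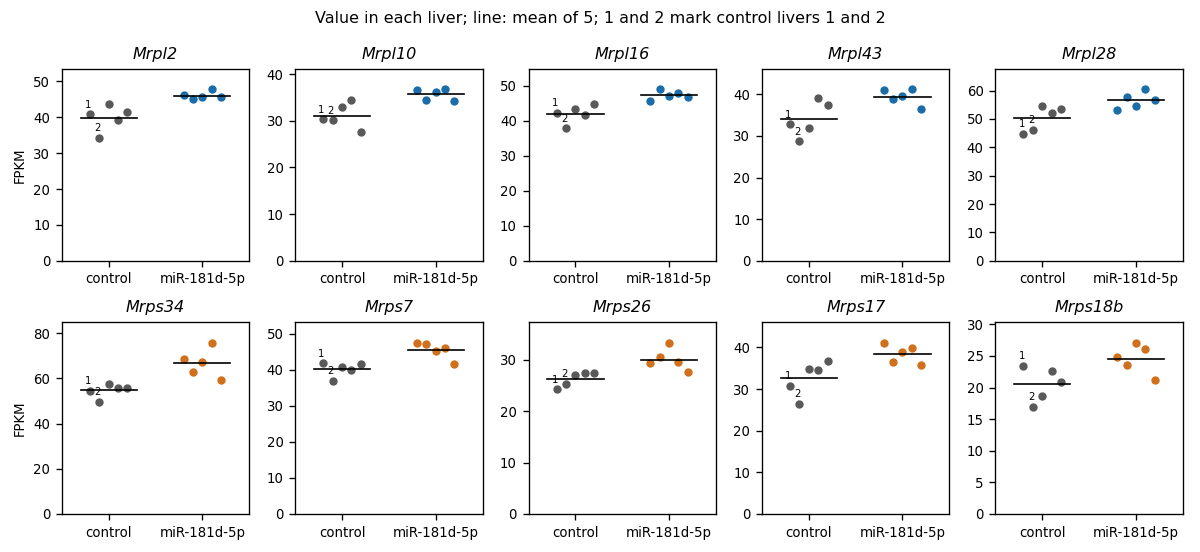
FPKM in each liver (linear axis from 0) of the 5 members with the lowest p in the large subunit (top) and in the small subunit (bottom), with a line at the mean of 5 livers and numerals at control livers 1 and 2. The groups are apart for Mrpl2, Mrpl16, Mrps34 and Mrps26, and for Mrpl43, Mrpl28 and Mrps17 the mean of the controls is drawn down by livers 1 and 2.

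The 3 members with no positive change were Mrps6, Mrps25 and Mrpl33. Mrps6, homolog of a bacterial protein of the small subunit's platform, had 13.1, 12.1, 15.9, 16.7 and 17.5 FPKM in controls and 11.1, 14.2, 15.1, 16.6 and 15.9 FPKM with miR-181d-5p. Its lowest value was in liver 1 of the second group, and the ranges overlapped (log2 change -0.04 ± 0.12, limma adjusted p = 0.888). Mrpl33, a small protein with a bacterial homolog, had 49.4, 47.4, 63.3, 64.2 and 72.0 FPKM in controls and 57.9, 56.0, 65.0, 57.7 and 55.4 FPKM with miR-181d-5p. Controls 3 to 5 were mostly above and controls 1 and 2 below the second group, and its change of -0.01 ± 0.11 (limma adjusted p = 0.988) became -0.18 without controls 1 and 2 (limma adjusted p = 0.251). Mrps25, the least abundant member, had -0.02 ± 0.07 (limma adjusted p = 0.904), and 69.8% of its exon bases overlap Nr2c2 on the other strand.

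The steadiness of the members differed too. The within-group SD of log2(FPKM + 1) was largest in the large subunit for Mrpl34 (0.229) and Mrpl33 (0.192), and in the small subunit for Mrps33 (0.229) and Mrps6 (0.214). It was smallest for Mrpl39 (0.046) and Mrpl38 (0.057), and for Mrps7 (0.0729) and Mrps25 (0.080). At the 2.45 FPKM of Mrps25, however, log2(FPKM + 1) shrinks the spread. Its SD in FPKM was 10.4% of the mean in controls and 3.18% with miR-181d-5p, against 5.01% and 5.09% for Mrps7. Mrpl34 ranged from 33.5 FPKM in control 1 to 57.0 FPKM in control 5, while Mrpl39, a relative of tRNA synthetases, stayed between 12.6 and 14.8 FPKM in all 10 livers.

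The direction was the same in both subunits over all 10 livers. Changes were above 0 for 48 of 49 large-subunit and 27 of 29 small-subunit members, with medians of 0.11 and 0.13. Without controls 1 and 2 they were above 0 for 29 of 49 and 19 of 29. Members higher at an unadjusted p under 0.05 numbered 6 and 9 (5.04% of all genes), and 2 and 4 without controls 1 and 2 (6.26% of all genes). The difference of the medians, large minus small, was -0.01, and -0.02 with Mrps18a and Mrps30 counted in the large subunit and Mrps36 left out. Without controls 1 and 2 the medians were 0.01 and 0.05, a difference of -0.04. The summed FPKM of the large subunit was 1.89 to 1.97 times that of the small subunit in controls and 1.82 to 1.94 times in the other group, so the ranges overlapped. No test was made of these sums, since members of a subunit are not replicates. Together the members made up 0.246% to 0.314% of the assigned reads of a liver, least in control 2 and most in miR-181d-5p liver 3.

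Gene length moved with the livers' differences. The members are short, 412 to 8707 nt with a median of 1412 nt, against 3326 nt for all genes tested. Among all genes tested, the shortest genes (the first of 3 equal parts by length) had median deviations of -0.121 and -0.115 in controls 1 and 2, and the longest (the last part) 0.151 and 0.183. In control 5 the shortest had 0.073 and the longest -0.147. Split by length into 3 sets of 26, the members had median changes of 0.12, 0.12 and 0.11 from shortest to longest, and -0.01, 0.07 and 0.02 without controls 1 and 2. Control 5 was the highest liver for 14, 4 and 8 members of these sets. With the trend of log2 values on gene length removed from each liver, 71 of 78 members were above 0 (51.6% of all genes), with a median of 0.08 and 16 members higher at an unadjusted p under 0.05 (7.56% of all genes). Control 2 then still had the lowest median, -0.120, while control 1 was at 0. The medians of the groups then no longer overlapped: controls ran from -0.12 to 0 and the miR-181d-5p livers from 0.006 to 0.089.

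With both the length trend removed and controls 1 and 2 left out, 64 of 78 members lay above 0 (51.7% of all genes), with a median of 0.05. At an unadjusted p under 0.05, 15 members were higher (9.05% of all genes), and the lowest adjusted p of a member was 0.108, for Mrps34. In this setting the medians were 0.04 in the large subunit and 0.10 in the small subunit. What part the length trend and the 2 livers play in the members' difference was not tested.

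Other genes of mitochondrial protein synthesis had changes of a similar size, without passing the adjusted test. Mitoribosomal proteins with other names were above 0 in 5 of 5 cases (median 0.12), and 3 of 5 were so without controls 1 and 2. Gadd45gip1, a large-subunit protein, had the lowest p of these (23.2 ± 2.13 against 26.7 ± 2.05 FPKM, log2 change 0.20, limma adjusted p = 0.30). Factors that assemble the mitoribosome were above 0 for 24 of 25 (median 0.12), and had a median of 0.10 with 19 of 25 above 0 without controls 1 and 2. Among them Fastkd2, which binds the large ribosomal RNA, stood at 6.43 to 7.35 FPKM in controls and 7.68 to 8.27 FPKM with miR-181d-5p, with no overlap (log2 change 0.18, limma adjusted p = 0.260). Mtg2, a GTPase of large-subunit assembly, had 0.20 (limma adjusted p = 0.311).

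Translation factors were above 0 for 13 of 15 (median 0.10), and for 11 of 15 without controls 1 and 2. Mtif3, an initiation factor, had 4.35 ± 0.505 against 5.43 ± 0.394 FPKM (log2 change 0.27, limma adjusted p = 0.240), and Gfm2, which helps to recycle ribosomes, had 0.14 (limma adjusted p = 0.404). Mitochondrial tRNA synthetases and the related amidotransferase were above 0 for 18 of 20 (median 0.10), and for 19 of 20 (median 0.12) without controls 1 and 2. Aars2, which charges tRNA with alanine, had 0.19 (limma adjusted p = 0.316). Genes of mitochondrial DNA upkeep and transcription were above 0 for 10 of 11 (median 0.09), and for 9 of 11 without controls 1 and 2, led by Top1mt, a topoisomerase (0.26, limma adjusted p = 0.269), and Mterf2 (0.13, limma adjusted p = 0.399). The Mterf2 mean with miR-181d-5p was 127.9% of a control mean of only 0.467 FPKM, where log2(FPKM + 1) shrinks changes. Tfam, which packages mitochondrial DNA, was at 11.5 ± 0.246 and 12.3 ± 0.501 FPKM, and Polrmt, the mitochondrial RNA polymerase, at 6.57 ± 0.974 and 7.02 ± 0.374 FPKM.

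Regulators of mitochondrial gene expression lay near the share of all genes: 4 of 9 were above 0 (45.5% of all genes), with a median of -0.03. Without controls 1 and 2, 4 of 9 were above 0 (50.2% of all genes). With the gene length trend removed, 6 of 9 were (51.6% of all genes), with a median of 0.02. Ppargc1a, a coactivator that raises mitochondrial biogenesis, had 0.686 ± 0.109 FPKM in controls and 0.423 ± 0.0795 FPKM with miR-181d-5p, and the groups did not overlap (log2 change -0.25 ± 0.07, limma adjusted p = 0.232). The second mean was 61.6% of the first, a change that log2(FPKM + 1) shrinks at so low a level. Without controls 1 and 2 the log2 change was -0.18 (limma adjusted p = 0.244). Gabpb1, a partner of Gabpa, had 0.20 (limma adjusted p = 0.298). Of the factors whose motifs were searched, Nrf1 was at 0.895 ± 0.118 and 0.971 ± 0.0192 FPKM and Gabpa at 8.85 ± 1.29 and 8.58 ± 0.654 FPKM (limma adjusted p = 0.675 and 0.889). Yy1 was at 13.7 ± 1.45 and 12.8 ± 1.05 FPKM (limma adjusted p = 0.641).

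The products that mitochondrial ribosomes make are assembled with nuclear-encoded oxidative phosphorylation subunits, and these had a similar median over all 10 livers. Of 107 symbols of that kind, 102 were above 0 (median 0.09), but 31 without controls 1 and 2 (median -0.04). With the length trend removed 88 were above 0 (median 0.04, 51.6% of all genes). With controls 1 and 2 also left out 64 were (median 0.015, 51.7% of all genes). Cytosolic ribosomal proteins, encoded by short and abundant genes, were above 0 for 60 of 79 (median 0.03), but for 1 without controls 1 and 2 (median -0.10). In the same 2 further settings 22 (median -0.025) and 13 (median -0.041) of these 79 were above 0. Both lists were low in control livers 1 and 2, at -0.264 and -0.248 for oxidative phosphorylation and -0.236 and -0.178 for cytosolic ribosomal proteins. They were high in control 5, at 0.233 and 0.295, and that liver stays in without controls 1 and 2. The deposited table held 0 symbols starting with mt-, the prefix of genes encoded by mitochondrial DNA, so those genes were not analysed here.

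**Figure D5:**
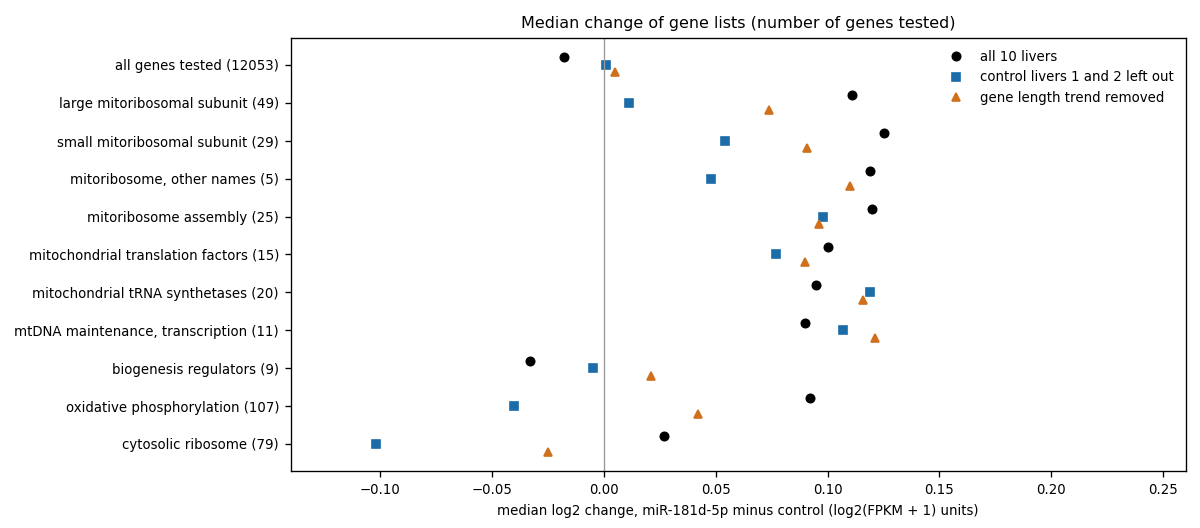
Median log2 change (log2(FPKM + 1) units, miR-181d-5p minus control) of the members by subunit and of other lists, with the number of genes tested in brackets, over all 10 livers (circles), with control livers 1 and 2 left out (squares) and with the gene length trend removed (triangles). The large subunit goes from 0.11 to 0.01 and the small subunit from 0.13 to 0.05 without those livers, while mitoribosome assembly goes from 0.12 to 0.10.

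In whole liver, fewer cells of a type and less RNA per cell cannot be told apart. Of 10 stellate cell and fibroblast markers, 0 were above 0 (median -0.40), where 45.5% of all genes tested were. Their summed level was 468.9 to 649.4 FPKM in controls and 342.8 to 467.3 FPKM with miR-181d-5p, with no overlap. For every other list of markers the sums of the groups overlapped. Cholangiocyte markers were above 0 for 0 of 6, with sums of 269.1 to 503.3 and 111.1 to 366.8 FPKM. Macrophage markers were above 0 for 2 of 10 (1166 to 1447 and 972 to 1219 FPKM), endothelial markers for 3 of 8 (129.4 to 150.8 and 129.8 to 137.4 FPKM) and lymphocyte markers for 1 of the 5 tested, whose list summed to 8.79 to 18.9 and 9.11 to 14.1 FPKM. Hepatocyte markers were above 0 for 7 of 10. None of these markers was at 0 in all livers or passed the adjusted test, and their part in the members' values was not tested.

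Other genes' exons overlap those of 33 of 78 members, and the sources used here do not tell if counting kept the strands apart. The overlap covers at least 50% of the exon bases of Mrps34, Mrps25 and Mrpl53. For Mrpl43 and Mrps18b it is 33.4% (Twnk, a mitochondrial DNA helicase, on the opposite strand) and 30.5%. For the other members named for their change it is 14.1% or less.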

How the data were processed

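Liver RNA from 10 samples (5 control AAV, 5 AAV encoding miR-181d-5p) was extracted with the mirVana kit and made into TruSeq Stranded mRNA libraries, per the labels' protocols. The authors deposited 1 table of FPKM values. The build was mm10, and HISAT2 (2.2.1), Trimmomatic (0.38), DESeq2 (1.18.1), HTSeq (0.13.5) and FastQC (0.11.9) are listed, per the submitters' processing notes, with no roles; the sources used here do not name the annotation.

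Each FPKM value divided into whole reads, within 0.02 of a read, for 99.994% of the genes with reads. This gave the read totals and gene lengths. For the test, log2(FPKM + 1) was fitted, for genes averaging 0.5 FPKM or more, with limma 3.58.1 in R 4.3.3 (eBayes with trend, group only, two-sided, Benjamini-Hochberg over all genes tested). Single values were compared by an exact permutation test, and intervals are SD or SE over 5 livers per group. Other steps used pandas 2.3.3, numpy 2.4.6 and matplotlib 3.10.9 under Python 3.11.15. Gene positions are 1-based, from GENCODE vM21.

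The members and lists were chosen with earlier results of these data known. Members are named for their change by the 5 lowest p in each subunit, and others for level, spread or position; in other lists the 2 lowest p are named, except 1 gene that is not reported here. Members of the motif, length and overlap results, Yy1, the 12 members lowest in unusual livers and the 3 with no positive change were named after their values were seen. Alternatives were other pseudocounts, filters, scalings and fits, a replicate block, each liver left out, and voom on the reads. Same-numbered livers did not deviate together. Cytosolic ribosomal proteins were taken by gene symbols of ribosomal proteins alone, without kinases and pseudogenes.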

Additional observations from a re-analysis of the deposited data

Results flagged for a closer look

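Mrpl33 was 65.0 FPKM in miR-181d-5p liver 3, far from the other 4 livers of its group, whose nearest value was 57.9 and whose lowest was 55.4 FPKM. The gap was 0.737 of the group's range, above Dixon's critical value of 0.71 for 5 samples. Over 62 groups of values looked at, chance alone gives about 3.1 such results, 1 in 20.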

How the results depend on the processing

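Over 24 alternative settings, 536 of 553 pairs of a result and a setting counted as kept. For counts this meant staying within 1.5 times or staying at 0. Medians were kept if they moved by less than the SD between livers, 0.101 for the members, which is close to their median of 0.116. So the fall of that median to 0.017 without controls 1 and 2 counted as kept. Changes of the 10 named members were kept by sign and side of the threshold. Only these could be labelled reversed, and 0 were. Under other pseudocounts, filters, scalings and fits, 0 genes passed an adjusted p of 0.05 and 12 to 18 members were higher at an unadjusted p under 0.05. Leaving out each liver in turn gave 0 to 3 genes past the adjusted threshold and 7 to 29 such members, 7 without control 2, 29 without control 5, and 8 or 9 without miR-181d-5p liver 1, 2, 3 or 4. The 3 genes were called without control 1, and 1 gene without control 5 or miR-181d-5p liver 3. The members' median ran from 0.07 to 0.16. The replicate block gave 1 gene and 8 members; same-numbered livers correlated at -0.28 to 0.02 and 0 of 5 controls correlated best with their own number, so the numbers do not pair the livers. Without controls 1 and 2, 7 genes passed, 6 members were higher and 1 lower, and 48 members were above 0; with the length trend also removed, 2 genes passed and large minus small was -0.06. The 10 members named for their change had adjusted p from 0.108 to 0.595 over these settings. The cause of these shifts was not tested. As for depth, the lowest value of a member rested on 126 reads.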
